A study of Rattus norvegicus with 9 samples.

Results

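The enzymes described here are 9 liver enzymes that break down amino acids, Tat, Hpd, Tdo2, Hal, Sds, Cth, Cbs, Got1 and Gpt. They were chosen by name, as the probes whose RefSeq accession on the array belongs to one of these genes. Each gene had 1 such probe, so 9 of the 41012 different probes of the array were used, for 9 of 13438 named genes. The series holds 9 liver samples of male Wistar rats, each read on an Agilent rat array with 1 colour. The 3 control samples came from rats that were not irradiated, the 3 TBI samples from rats that received 6.5 Gy of total-body irradiation from a 60Co source, and the 3 HSC + TBI samples from rats given Hong Shan Capsule (HSC), a mixture of medicinal herbs, by stomach for 3 days before the same exposure. The treatment protocol of the samples gives the HSC dose as 30 mg/kg body weight per day, and the design text as 10 g/kg per day, and the dose entered no calculation. Livers were taken 24 h after exposure. No liver of rats given HSC without irradiation was analysed here, so the arrays show HSC only on top of TBI. Neither the labels nor the methods give the age of these rats or say whether food was withheld.

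The liver is the main site of amino acid breakdown. Nitrogen is passed on by aminotransferases, most of it ends in urea, and the carbon skeletons go to glucose, ketone bodies or the citric acid cycle. Several of these enzymes are controlled at the level of their mRNA by hormones. Tyrosine aminotransferase (Tat) and tryptophan dioxygenase (Tdo2) are the textbook examples of induction by glucocorticoids, and serine dehydratase (Sds) is known to rise with fasting, glucagon and protein-rich food. Aspartate aminotransferase (Got1) and alanine aminotransferase (Gpt) are the enzymes whose activity in plasma is read as a sign of liver damage. The arrays measure their mRNA in the liver and not that activity.

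Of the 9 enzymes, RefSeq promoter sequences (assembly GRCr8) were at hand for 6, namely Tat, Hpd, Tdo2, Cth, Cbs and Got1. The 250 bases before the transcript start are shown for the 3 of these 6 whose 95% interval of the change after TBI lay above 0, and for Tdo2, which lay slightly below control. Capitals mark CCAAT boxes (CCAAT on either strand) and, in Tdo2, a match to TATAAA, the letters of the TATA box, at positions -228 to -223 from the start. These motifs were added after the sequences had been seen. For Got1 the start used is that of a transcript inside the gene's RefSeq record.

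Tat (chr19:54856354-54856603, plus strand): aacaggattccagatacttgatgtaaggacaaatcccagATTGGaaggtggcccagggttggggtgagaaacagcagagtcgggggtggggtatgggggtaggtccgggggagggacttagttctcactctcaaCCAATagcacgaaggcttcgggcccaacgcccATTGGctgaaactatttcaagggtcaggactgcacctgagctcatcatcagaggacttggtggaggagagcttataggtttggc
Got1 (chr1:252329872-252330121, minus strand): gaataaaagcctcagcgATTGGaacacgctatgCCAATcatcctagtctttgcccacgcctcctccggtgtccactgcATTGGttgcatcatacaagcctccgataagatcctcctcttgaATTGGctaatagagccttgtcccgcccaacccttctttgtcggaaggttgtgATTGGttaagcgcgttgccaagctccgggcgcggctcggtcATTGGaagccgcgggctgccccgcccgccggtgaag
Cbs (chr20:9733926-9734175, minus strand): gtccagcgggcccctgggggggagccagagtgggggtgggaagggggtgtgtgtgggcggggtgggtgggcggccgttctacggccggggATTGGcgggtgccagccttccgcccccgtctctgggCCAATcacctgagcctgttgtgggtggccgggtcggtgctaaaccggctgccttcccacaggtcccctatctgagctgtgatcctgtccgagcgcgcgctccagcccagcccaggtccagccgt
Tdo2 (chr2:169585587-169585836, minus strand): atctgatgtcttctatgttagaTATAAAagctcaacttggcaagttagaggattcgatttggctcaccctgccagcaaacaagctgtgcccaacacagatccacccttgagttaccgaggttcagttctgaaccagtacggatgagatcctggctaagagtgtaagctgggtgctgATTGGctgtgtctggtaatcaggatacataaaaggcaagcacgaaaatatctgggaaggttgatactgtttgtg

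The Got1 sequence holds 6 CCAAT boxes, that of Tat 3, that of Cbs 2 and that of Tdo2 1. Over the whole window of 300 bases, which runs to 50 bases after the start, 5 of the 6 enzymes had at least 1 CCAAT box, as did 37.5% of the 33469 promoters of the same length. The core hexamer of the glucocorticoid receptor site (TGTTCT) was in 0 of the 6 windows and in 20.7% of all promoters, and the full glucocorticoid response element was in 0 of the 6 and in 0.0149% of all. The cyclic AMP response element (TGACGTCA) and its shorter core (TGACG) were in 0 of the 6, and in 1.83% and 21.2% of all promoters. The C/EBP site (TTGCGCAA) and its looser form (TTGCNNAA) were in 0 of the 6, and in 0.17% and 10.6% of all. The HNF1 core (GTTAAT) was found in Hpd, and in 7.45% of all promoters. All motifs were searched on both strands, the longer forms contain the shorter ones, and a match or its absence describes only the letters of this window.

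Values are log2 signals after quantile normalization over the 9 arrays, and a difference of 1 is a 2-fold ratio. The 9 probes were well above background on all 9 arrays, so all 9 were among the 25369 probes tested. A probe was called when limma gave a Benjamini-Hochberg adjusted p under 0.05, adjusted over all tested probes, together with a fold change of at least 1.5. With 3 samples per group the number of arrays limits the precision. The labels number the samples of a group as replicates, and the study's text speaks of them as individual rats. All 3 control arrays lay on slide 1 and all 3 TBI arrays on slide 2. HSC + TBI 1 and 3 lay on slide 3, and HSC + TBI 2 on slide 4. No slide held arrays of more than 1 group, so slide and group cannot be told apart in any of the 3 comparisons. The share of probes above background was 56.6% to 59.3% on control, 63.6% to 69.5% on TBI and 58.7% to 60.5% on HSC + TBI arrays. Hepatocyte markers were present on every array (8 of 8 above background), and their summed signal was 1118000 to 1202000 in control, 1065000 to 1214000 in TBI and 1128000 to 1222000 in HSC + TBI samples. Of the hepatocyte markers, 0 were called in any comparison. The shares of all tested probes called were 7.26% after TBI, 3.24% after HSC + TBI and 0.796% between the irradiated groups. In bulk liver, fewer cells of a type and less RNA per cell cannot be told apart.

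**Figure D1:**
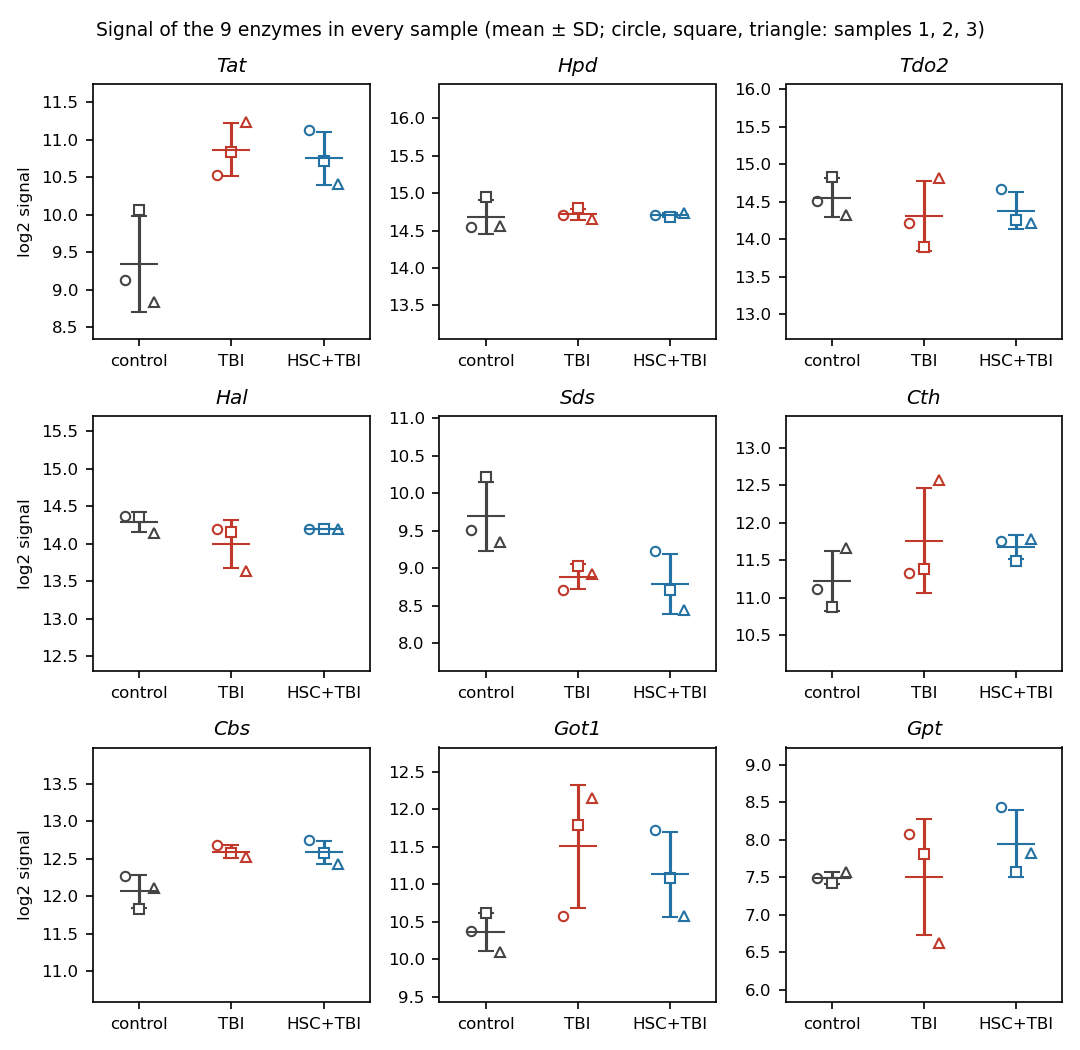
Log2 signal of each enzyme (vertical axis, the same span in every panel) in control, TBI and HSC + TBI samples. Circles, squares and triangles are samples 1, 2 and 3 of a group, and bars are mean ± SD (n = 3). Tat and Cbs lie higher, and Sds lower, in all 6 irradiated samples than in the 3 controls, whereas Hpd lies at about the control mean after TBI and Gpt on both sides of it.

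The clearest difference among the 9 enzymes was in tyrosine aminotransferase (Tat, gene ID 24813), which catalyses the first step of tyrosine breakdown. Its log2 signal was 9.13, 10.06 and 8.83 in control samples 1 to 3, 10.53, 10.84 and 11.24 in TBI samples 1 to 3, and 11.12, 10.71 and 10.41 in HSC + TBI samples 1 to 3. Each of the 6 irradiated samples was above each control sample, and the 2 irradiated groups overlapped. Tat rose 2.88-fold after TBI, from 9.34 ± 0.64 to 10.87 ± 0.36 (SD, n = 3), which is 1.53 on the log2 scale with a standard error of 0.33 (limma's adjusted p = 0.0287). Only 2.83% of the tested probes had a larger change in either direction. Control 2 was the highest of the controls, and the log2 fold change was 1.89 without it. Tat no longer passed when control 1 was left out (limma's adjusted p = 0.0843), nor without control 3 (0.0944), TBI 2 (0.0716) or TBI 3 (0.0594), with log2 fold changes between 1.27 and 1.89 over the 9 samples left out in turn. By the same test it also missed the threshold when dim probes were kept (0.0521) or when the fit held the compared groups alone (0.0603).

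In HSC + TBI samples Tat was 2.66 times the control signal (10.75 ± 0.36), or 1.41 on the log2 scale (standard error 0.33), and did not pass (limma's adjusted p = 0.0616). It did pass without control 2, at 1.77 (adjusted p = 0.0270 by limma), and when arrays were shifted to their 75th percentile instead of normalized by quantiles, at 1.49 (adjusted p = 0.0424 by limma). Set directly against the TBI samples, HSC + TBI differed by -0.12 on the log2 scale, with a 95% interval of -0.88 to 0.64 (adjusted p = 0.889 by limma). The order of the groups was control, HSC + TBI and TBI, and HSC + TBI and TBI did not differ beyond their spread.

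The other 3 enzymes of this group act on tyrosine, tryptophan and histidine. 4-Hydroxyphenylpyruvate dioxygenase (Hpd, gene ID 29531) takes the product of Tat one step further. Its signal was 14.55, 14.94 and 14.56 in the controls, 14.71, 14.80 and 14.65 after TBI, and 14.71, 14.68 and 14.73 after HSC + TBI. All 9 values lay close together and the groups overlapped. The log2 fold change was 0.03 after TBI (95% interval -0.27 to 0.33) and 0.02 after HSC + TBI (-0.28 to 0.32) and was not called (adjusted p = 0.896 and 0.942 by limma).

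Tryptophan dioxygenase (Tdo2, gene ID 64206) opens the kynurenine pathway. Its signal was 14.51, 14.84 and 14.33 in the controls, 14.22, 13.90 and 14.82 after TBI, and 14.67, 14.26 and 14.22 after HSC + TBI. TBI 2 was the lowest and TBI 3 the second highest of the 9 samples, so the TBI samples spanned nearly the whole range. The log2 fold change was -0.25 after TBI (95% interval -0.82 to 0.32, adjusted p = 0.575 by limma) and -0.17 after HSC + TBI (-0.74 to 0.40, adjusted p = 0.753 by limma). The former was -0.50 without TBI 3 and -0.0394 without TBI 2.

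Histidine ammonia-lyase (Hal, gene ID 29301) starts histidine breakdown. Its signal was 14.38, 14.36 and 14.14 in the controls, 14.20, 14.16 and 13.63 after TBI, and 14.20, 14.19 and 14.19 after HSC + TBI. TBI 3 was the lowest sample, while the 3 HSC + TBI samples were nearly equal (SD 0.0033). The log2 fold change was -0.29 after TBI (95% interval -0.66 to 0.08, adjusted p = 0.299 by limma) and -0.10 after HSC + TBI (-0.47 to 0.28). Without TBI 3 the former was -0.11.

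Sds, Cth and Cbs act on serine, threonine and the sulphur amino acids. Serine dehydratase (Sds, gene ID 25044) turns serine into pyruvate and ammonia and so feeds glucose synthesis. Its signal was 9.51, 10.22 and 9.34 in the controls, 8.70, 9.02 and 8.93 after TBI, and 9.23, 8.70 and 8.44 after HSC + TBI. All 6 irradiated samples were below all 3 controls, opposite to Tat, and control 2 was again the highest of its group. After TBI the signal was 0.573 times that of control, or -0.80 on the log2 scale with a standard error of 0.27 (limma, unadjusted p = 0.0154 and adjusted p = 0.104). After HSC + TBI it was 0.536 times, or -0.90 on the same scale (limma's adjusted p = 0.112), and between the irradiated groups the difference was -0.10 (95% interval -0.70 to 0.51). Sds was not called in these comparisons, and with each sample left out its log2 fold change lay between -0.98 and -0.54 after TBI and between -1.12 and -0.64 after HSC + TBI.

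Cystathionine beta-synthase (Cbs, gene ID 24250) and cystathionine gamma-lyase (Cth, gene ID 24962) carry sulphur from homocysteine to cysteine, and both can release hydrogen sulphide. Cbs had a signal of 12.26, 11.82 and 12.11 in the controls, 12.69, 12.58 and 12.52 after TBI, and 12.74, 12.58 and 12.43 after HSC + TBI. The 6 irradiated samples were all above the controls, by little. The signal of Cbs was 1.44 times that of control after TBI, or 0.53 on the log2 scale with a standard error of 0.15 (limma, unadjusted p = 0.00576 and adjusted p = 0.0611), and 1.43 times after HSC + TBI, or 0.52 (adjusted p = 0.0963 by limma). Both lie under the 1.5-fold minimum, so Cbs could not have been called whatever its p. With normexp background correction the log2 fold change after TBI was 0.62 (adjusted p = 0.0180 by limma), and Cbs was called. Between the irradiated groups the log2 difference was -0.01, with a 95% interval of -0.34 to 0.32.

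Cth had a signal of 11.12, 10.88 and 11.66 in the controls, 11.34, 11.38 and 12.57 after TBI, and 11.75, 11.49 and 11.78 after HSC + TBI. The groups overlapped, and TBI 3 stood above every other sample. The log2 fold change of 0.54 after TBI (95% interval -0.23 to 1.31, adjusted p = 0.351 by limma) fell to 0.14 without TBI 3. After HSC + TBI it was 0.46 (95% interval -0.31 to 1.22).

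Got1 and Gpt are the aminotransferases that pair aspartate and alanine with glutamate. Cytosolic aspartate aminotransferase (Got1, gene ID 24401) had a signal of 10.37, 10.62 and 10.10 in the controls, 10.58, 11.79 and 12.15 after TBI, and 11.72, 11.09 and 10.58 after HSC + TBI. TBI 1 and HSC + TBI 3 lay at the level of the highest control and the other 4 irradiated samples above it, so both irradiated groups overlapped with the controls. The mean ratio to control was 2.21 after TBI, a log2 fold change of 1.14 (95% interval 0.19 to 2.10, unadjusted p = 0.0243, adjusted p = 0.133 by limma). Without TBI 1 it was 1.61 (adjusted p = 0.0294 by limma) and Got1 was called. After HSC + TBI the log2 fold change was 0.77 (95% interval -0.19 to 1.72, adjusted p = 0.355 by limma), and between the irradiated groups it was -0.37 (-1.33 to 0.58). With each sample left out that last difference lay between -0.84 (without TBI 1) and -0.0532 (without TBI 3).

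Alanine aminotransferase (Gpt, gene ID 81670) had a signal of 7.48, 7.42 and 7.57 in the controls, 8.07, 7.80 and 6.62 after TBI, and 8.44, 7.57 and 7.82 after HSC + TBI. TBI 1 and TBI 2 were above the controls and TBI 3 far below them, with an SD of 0.78 against 0.08 in the controls. The log2 fold change was 0.01 after TBI (95% interval -0.83 to 0.84), 0.45 after HSC + TBI (-0.38 to 1.29) and 0.45 between the irradiated groups (-0.39 to 1.28). Without TBI 3 the first of these was 0.45 and the last 0.0061, and without HSC + TBI 1 the second was 0.21.

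**Figure D2:**
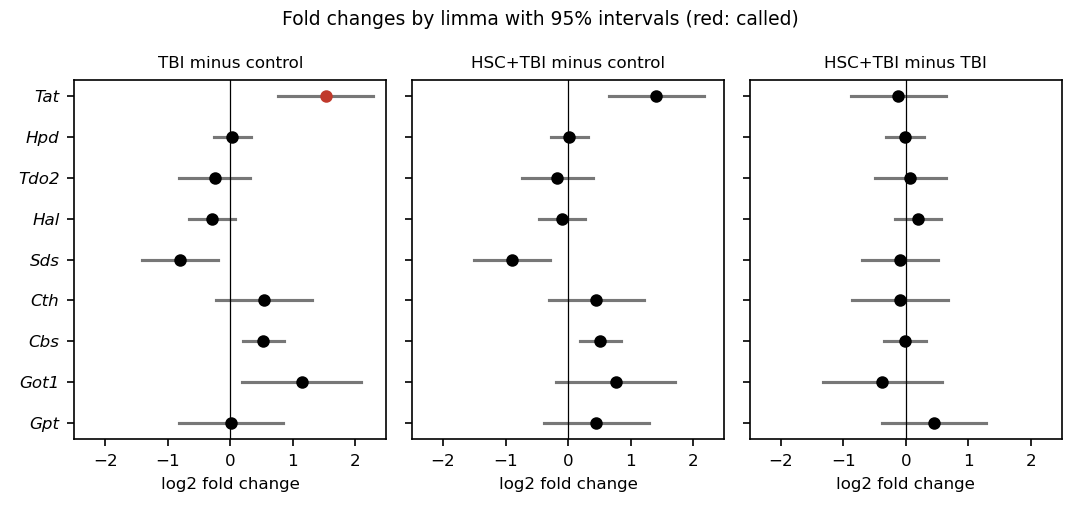
Log2 fold changes of the 9 enzymes (horizontal axis) in the 3 comparisons, with points from limma and bars for 95% intervals. Red marks the 1 call, Tat after TBI at 1.53. The intervals of Tat, Sds and Cbs exclude 0 in both comparisons with control, and that of Got1 after TBI only. All 9 intervals include 0 between HSC + TBI and TBI.

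Counted together, 1 of the 9 enzymes (11.1%) was called after TBI, beside 7.26% of all tested probes (3.53% higher and 3.73% lower), and 0 were called after HSC + TBI, beside 3.24% (1.19% higher and 2.05% lower). Between HSC + TBI and TBI samples 0 were called, beside 0.796% (0.233% higher and 0.564% lower), and 0 did not overlap, beside 21.5%. Positive log2 fold changes were found for 6 of the 9 after TBI, for 6 after HSC + TBI and for 3 between the irradiated groups, beside 49.2%, 56.5% and 58.9% of tested probes. An unadjusted p under 0.05 by limma was met by 4, 3 and 0 of the 9 (44.4%, 33.3% and 0%) in the same order, beside 25.4%, 19.6% and 16.3% of tested probes. Before adjustment the methods' t-test, with its 1.5-fold minimum, called 1, 1 and 0 of the 9, beside 8.39%, 6.67% and 3.68%. The 3 enzymes whose samples did not overlap with the controls were the same in both irradiated groups (Tat, Sds and Cbs), a share of 33.3% beside 28.8% of tested probes after TBI and 31.6% after HSC + TBI. This share of 33.3% is near the background in both comparisons with control. The median log2 fold change of the 9 was 0.03 after TBI and 0.45 after HSC + TBI, beside -0.01 and 0.05 over all tested probes, and -0.01 beside 0.06 between the irradiated groups. Both comparisons with control use the same 3 control samples.

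The highest and the lowest sample of each group were noted for each enzyme. No share over all tested probes stands beside these counts, so they are a description. Control 2 was the highest control for 5 enzymes (Tat, Hpd, Tdo2, Sds and Got1) and the lowest for 3 (Cth, Cbs and Gpt). TBI 3 was the highest TBI sample for Tat, Tdo2, Cth and Got1 and the lowest for Hpd, Hal, Cbs and Gpt. HSC + TBI 1 was the highest of its group for 7 of the 9 and the lowest for 0. TBI 3 also had the largest share of probes above background of all arrays, and the part of this share in the values was not tested.

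**Figure D3:**
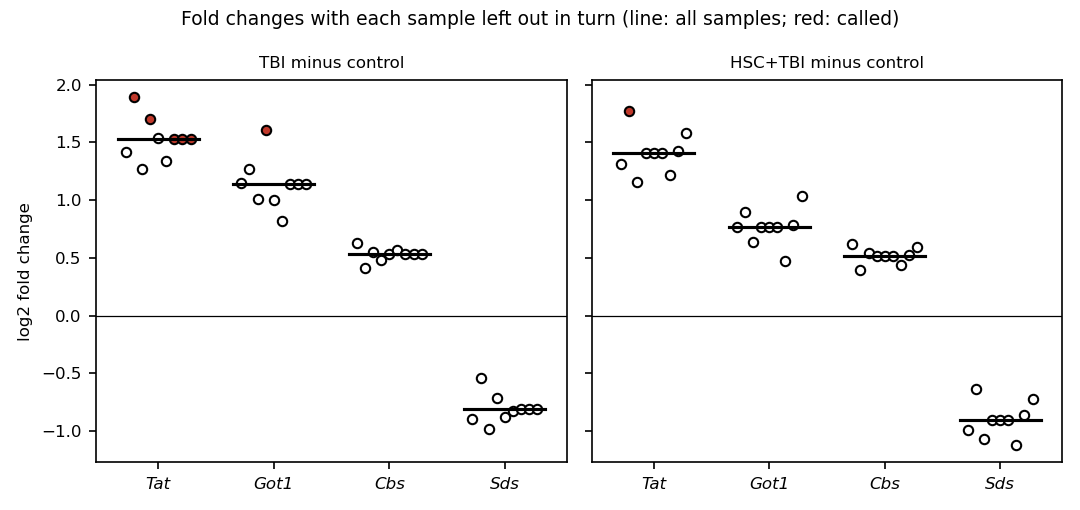
Log2 fold changes (vertical axis) of Tat, Got1, Cbs and Sds against control with each of the 9 samples left out in turn. Each point is 1 sample left out, in the order controls, TBI and HSC + TBI, lines are the values with all samples, and red points are called. Tat stays between 1.27 and 1.89 after TBI but is called with only 5 of the 9 samples left out.

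Among 9597 named genes, those whose 9 centred log2 values lay nearest to the values of Tat were Slc38a2, a transporter of neutral amino acids (root mean square difference 0.226), Fas, a death receptor (0.278), and Coq10b, a coenzyme Q binding protein (0.305). The root mean square of Tat itself about its mean was 0.793. The likeness runs over the same 9 samples in 3 groups and is a description.

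A wider list held 75 other enzymes of amino acid breakdown, of which 62 had a named probe and 61 were tested. After TBI 0 of the 61 were called higher and 1 lower (1.64%, beside 7.26% of all tested probes). The log2 fold changes ran from -0.78 to 0.88 with a median of -0.06. They were above 0 for 27 and below 0 for 34, beside 49.2% of all tested probes above 0. After HSC + TBI 0 were called higher and 1 lower (1.64%, beside 3.24%), with a range from -0.83 to 0.60 and a median of 0.04. Here 37 were above 0 and 24 below, beside 56.5% of all tested probes above 0. Between the irradiated groups 0 were called, by limma or by the methods' t-test with its 1.5-fold minimum before adjustment. An unadjusted p under 0.05 by limma was met there by 6 of the 61 (9.84%), beside 16.3% of tested probes. The enzyme called lower in both comparisons with control was Ethe1, the mitochondrial dioxygenase that oxidizes the persulphide made from hydrogen sulphide. Its log2 fold change was -0.78 after TBI (adjusted p = 0.0319 by limma) and -0.83 after HSC + TBI (adjusted p = 0.0411 by limma). After TBI, Ethe1 no longer passed when control 1, control 3, TBI 1, TBI 2 or HSC + TBI 3 was left out, and after HSC + TBI with 1 sample left out it held only without control 2 or TBI 3. Ethe1 was also not called after TBI with normexp, nor after HSC + TBI with the 75th percentile shift.

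By pathway, 0 of 4 tested enzymes of aromatic amino acids, 0 of 6 of tryptophan, 0 of 1 of histidine and 0 of 8 of serine, glycine and threonine were called after TBI. The same was 1 of 14 for methionine, choline and cysteine, 0 of 5 for transamination and glutamate, 0 of 6 for proline, ornithine and lysine, and 0 of 17 for the branched chain. Homogentisate dioxygenase (Hgd), further down the tyrosine pathway than Tat and Hpd, stood at 0.44 on the log2 scale after TBI (limma's adjusted p = 0.0387). It was not called, being below the 1.5-fold minimum, and stood at 0.31 after HSC + TBI (limma's adjusted p = 0.144). Aass, the first enzyme of lysine breakdown, had 0.88 after TBI (adjusted p = 0.0774 by limma) and 0.39 after HSC + TBI. In the other direction, Acadsb of the branched chain had -0.46 after TBI (adjusted p = 0.0793 by limma) and -0.05 after HSC + TBI.

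**Figure D4:**
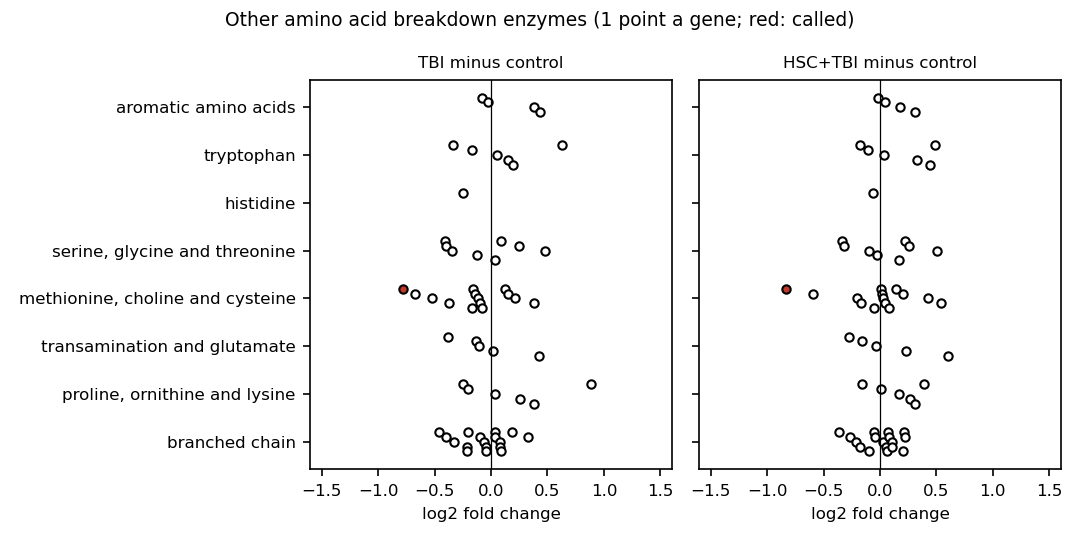
Log2 fold changes (horizontal axis) of the 61 tested enzymes of the wider list by pathway, after TBI and after HSC + TBI, 1 point a gene. Red marks Ethe1, at -0.78 and -0.83, and the other 60 enzymes were not called in either comparison.

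Since Tat and Tdo2 are known targets of glucocorticoids, 14 other genes known to be induced by these hormones were counted. After TBI 4 were called higher (Tsc22d3, Sgk1, Igfbp1 and Pdk4) and 3 lower (Fkbp5, Zbtb16 and Mt2A). In both directions together 50% were called, beside 7.26% of all tested probes. The other 2 probes of Fkbp5 lay in the same direction and were not called. Of the 14, 1 was called higher after HSC + TBI (Tsc22d3, 7.14%, beside 3.24%). Between HSC + TBI and TBI samples 1 was called higher (Zbtb16, 7.14%, beside 0.796%).

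Markers of other cell types were read beside these results. Over all tested probes, 3.73% were called lower after TBI, 2.05% lower after HSC + TBI and 0.233% higher between the irradiated groups. In either direction, 7.26%, 3.24% and 0.796% were called in these comparisons. Of 7 lymphocyte markers with a probe, 5 were tested, with 2 called lower after TBI, 1 lower after HSC + TBI and 1 higher in HSC + TBI than in TBI samples. The summed signal of the 7 was 521.1 to 670.3 in control, 305.1 to 465.8 in TBI and 289.6 to 382.2 in HSC + TBI samples, with Cd3e above background on no array. The 6 Kupffer cell and macrophage markers had 0 calls, with sums of 46650 to 66310, 45930 to 86930 and 32090 to 35230 in the same order. The 4 erythroid markers had 0 calls, with sums of 2032 to 4983, 1341 to 2732 and 1054 to 1850. Of the 5 stellate cell markers 1 was called lower after TBI, and of the 3 endothelial and 2 bile duct markers 0 were called. The endothelial sums were 12420 to 15400 in control, 16430 to 20270 in TBI and 15260 to 16990 in HSC + TBI samples. In the same order the stellate sums were 11300 to 13310, 7870 to 15790 and 9303 to 9583. Those of the bile duct were 384.7 to 517.7, 340.3 to 640.3 and 425.8 to 473.2. The part of these cells in the values of the 9 enzymes was not tested.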

How the data were processed

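Liver RNA of 3 control, 3 TBI and 3 HSC + TBI samples was measured on arrays with 1 colour. The deposited scanner files hold a background-subtracted intensity and flags for each of 43379 spots, made by the authors with Feature Extraction 10.7.3.1. The authors also deposited log2 values after quantile normalization. The processed intensities were the starting point here, and the authors' log2 values an alternative (median absolute difference 0.03 on each array).

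After a floor of 1, the log2 of each signal was taken and quantiles were equalized (limma 3.58.1, R 4.3.3). Outlier spots (84 to 115 per array) were dropped and spots of 1 probe averaged. No spot was saturated. Quantile normalization sets all arrays to 1 distribution, so a change shared by most genes cannot be seen. A probe was tested if, in 1 group or more, each of the 3 arrays had over 0.5 of its spots flagged above background. RefSeq accessions named 16968 probes through GRCr8, used for names and promoters. Groups were compared by lmFit and eBayes in 1 fit. The procedure was checked on simulated data. Of several probes of a gene, the brightest tested one was used. The methods name a t-test with a fold change, run here as an alternative (at least 1.5-fold). Its form, with unequal variances and a ratio of means, is not given in the sources used here. That form, and dropping outlier spots after rather than before the quantile step, were set to follow an earlier processing of these data, with its counts known. The named genes were the 9 enzymes, called genes of the wider list, and the 3 genes nearest to each called enzyme. Hgd, Aass, Acadsb and the glucocorticoid-induced genes fall outside this rule and were named after their values were seen. The enzymes, lists, motifs and tests were chosen with earlier results of these data known. No permutation test was used, since 0.1 is the smallest exact two-sided p that 3 against 3 samples allow. Groups came from the sample titles.

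Other settings tried were an array shift to the 75th percentile, normexp with an offset of 50, the authors' values, no filter, a filter over all 9 arrays, outlier spots left in, the compared groups alone, the t-test before and after adjustment, calls without a minimum fold change, the replicate block, the slide as a random block, an intensity trend, and each sample left out.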

Additional observations from a re-analysis of the deposited data

How the results depend on the processing

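Tat after TBI kept its direction in all settings. It was the enzyme behind most changes of the count of called enzymes. After TBI that count (1) became 2 with normexp (Tat and Cbs), 3 with the slide as a random block (Tat, Sds and Got1), and 0 with no filter on dim probes (Tat at 1.53, adjusted p = 0.0521 by limma), with only the compared groups in the fit (adjusted p = 0.0603 by limma) or with the t-test's p adjusted. With each sample left out it was 0 to 2. After HSC + TBI the count (0) became 1, for Tat, with a 75th percentile shift, normexp, the unadjusted t-test or an intensity trend, and 2 with the slide as a block (Tat and Sds). With each sample left out it was 0 to 1. Between the irradiated groups it stayed at 0 in every setting.

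Of the wider list, the count after TBI (1) became 0 with only the compared groups in the fit or by the t-test with either p, 2 with no minimum fold change, and 4 with the slide as a block. After HSC + TBI (1) it became 0 with no filter, with only the compared groups or with the t-test's p adjusted, and 2 with the slide as a block. Between the irradiated groups (0) it became 1 with the slide as a block (Gpt2). With each sample left out it was 0 to 1 in both comparisons with control. Where the count stayed at 1 with all samples in, the gene was Ethe1, except after TBI with normexp (Aass) and after HSC + TBI with the 75th percentile shift (Sardh). The slide fit estimated a correlation of -0.33 between arrays of 1 slide, which by construction narrows the error of a group on 1 slide. The cause of the other moves was not tested.

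Sign changes were limited to differences that were not called. Under the 75th percentile shift they were 0.0203 for Tdo2 and 0.0882 for Hal after HSC + TBI, and 0.13 for Hpd, 0.0022 for Cth and 0.0709 for Cbs between the irradiated groups. With a sample left out, Hpd ran from -0.0319 to 0.16 and Gpt from -0.28 to 0.45 after TBI, and Hpd from -0.0417 to 0.15 after HSC + TBI. Between the irradiated groups Tat ran from -0.31 to 0.0682, Hpd from -0.0437 to 0.03, Tdo2 from -0.14 to 0.33, Sds from -0.31 to 0.0798, Cth from -0.30 to 0.32 and Cbs from -0.0914 to 0.065.

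The shared replicate numbers were not taken to pair the samples, since not every correlation of same-numbered deviations was over 0.1. They were 0.191, 0.117 and 0.0975 for TBI and control, 0.000374 to 0.0148 for HSC + TBI and control, and -0.14 to -0.0162 between the irradiated groups. With the replicate block Tat after TBI was not called (adjusted p = 0.0545 by limma), so the count was 0, and the other counts of called enzymes were the same. Of all calls, 48.7% were higher after TBI with quantiles and 57.5% under the 75th percentile shift, and 29.2% and 13.7% between the irradiated groups. The mean over several probes of a gene was not run, since each enzyme had 1 probe.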
